A study of Mus musculus with 15 samples.

Results

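The mouse genome encodes a family of collagens, and 44 protein-coding collagen genes were found among the 55421 genes counted in these lungs. Members were taken by symbol, Col followed by a type number, the letter a and a chain number, which gave 27 collagen types. They were placed in 3 classes: 11 fibrillar genes (types I, II, III, V, XI, XXIV and XXVII), 8 basement membrane genes (types IV, XV and XVIII) and 25 others.

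The lungs came from 15 female wild-type C57BL/6 mice in 3 groups of 5, whose total RNA was sequenced, and every animal had received house dust mite (HDM) extract, a common airborne allergen used to provoke asthma-like inflammation. The extract was given through the nose at 10 µg on 5 days of each of 2 weeks, and lungs were collected on day 15. The HDM group received nothing further, the MSC day 6 group also received intranasal mesenchymal stem cells (MSCs) from adipose tissue on day 6, and the MSC day 13 group received them on day 13. The labels tie the earlier administration to long-term and the later one to short-term effects of the cells. Saline-treated mice were not analysed here, so each value is relative to HDM-exposed lung and not to healthy lung.

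Collagens are built from 3 polypeptide chains that wind into a triple helix in the endoplasmic reticulum after prolyl and lysyl hydroxylation. Fibrillar collagens such as types I and III are trimmed outside the cell, pack into fibrils and are cross-linked by lysyl oxidases, which gives the airway wall and alveolar septum tensile strength. Type IV collagen instead forms the sheet-like network of basement membranes under epithelium and around vessels. Deposition of fibrillar collagen below the airway epithelium is a known feature of airway remodelling in asthma.

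The 6 type IV genes lie head to head in 3 pairs, so their start regions are shown here as context for the chain ratios given further on. In the GENCODE M21 annotation of GRCm38, the start sites of Col4a1 and Col4a2 on chromosome 8 stand 21 bases apart with overlapping first exons, those of Col4a4 and Col4a3 on chromosome 1 are 72 bases apart, and those of Col4a6 and Col4a5 on chromosome X are 1309 bases apart. The windows below, from RefSeq on GRCm38.p6, run from 250 bases before to 50 bases after each gene's start, each on the gene's own strand. They lie at chr8:11312777-11313076 (minus strand, Col4a1), chr8:11312555-11312854 (plus, Col4a2), chr1:82586800-82587099 (minus, Col4a4), chrX:141475169-141475468 (plus, Col4a5) and chrX:141474027-141474326 (minus, Col4a6). Capitals mark 3 common promoter motifs on either strand: TATAAA of the TATA box, the letters CCAAT that NF-Y is known to bind, and the letters GGGCGG that Sp1 is known to bind.
Col4a1: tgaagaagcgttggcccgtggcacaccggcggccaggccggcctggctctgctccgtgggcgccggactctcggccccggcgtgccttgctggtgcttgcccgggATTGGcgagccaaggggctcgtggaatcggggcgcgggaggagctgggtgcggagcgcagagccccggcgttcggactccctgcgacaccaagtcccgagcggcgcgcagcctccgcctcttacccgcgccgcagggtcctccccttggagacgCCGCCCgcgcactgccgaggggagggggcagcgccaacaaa
Col4a2: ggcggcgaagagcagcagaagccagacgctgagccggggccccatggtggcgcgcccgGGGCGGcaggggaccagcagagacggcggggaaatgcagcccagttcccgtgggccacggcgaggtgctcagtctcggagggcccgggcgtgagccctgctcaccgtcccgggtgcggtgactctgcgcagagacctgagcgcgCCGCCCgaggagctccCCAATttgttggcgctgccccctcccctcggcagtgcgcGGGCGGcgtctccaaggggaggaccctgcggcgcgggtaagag
Col4a4: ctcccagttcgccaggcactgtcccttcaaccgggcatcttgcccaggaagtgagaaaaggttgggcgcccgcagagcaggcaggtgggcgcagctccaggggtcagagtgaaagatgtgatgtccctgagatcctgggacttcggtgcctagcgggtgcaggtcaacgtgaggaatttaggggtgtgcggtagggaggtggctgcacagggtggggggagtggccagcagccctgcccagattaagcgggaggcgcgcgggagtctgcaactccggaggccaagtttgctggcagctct
Col4a5: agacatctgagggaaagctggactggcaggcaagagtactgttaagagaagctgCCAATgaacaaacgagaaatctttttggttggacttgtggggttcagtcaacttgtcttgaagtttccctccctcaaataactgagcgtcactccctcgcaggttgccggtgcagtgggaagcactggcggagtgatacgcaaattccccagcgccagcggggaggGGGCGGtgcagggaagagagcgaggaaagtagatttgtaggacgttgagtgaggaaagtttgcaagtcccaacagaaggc
Col4a6: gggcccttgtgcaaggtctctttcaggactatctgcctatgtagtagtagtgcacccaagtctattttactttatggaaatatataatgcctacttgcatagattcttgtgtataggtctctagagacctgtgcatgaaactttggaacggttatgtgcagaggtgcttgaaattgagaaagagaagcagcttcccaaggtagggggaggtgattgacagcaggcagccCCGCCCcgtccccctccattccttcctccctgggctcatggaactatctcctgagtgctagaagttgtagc

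The Col4a1 and Col4a2 windows share 78 bases, the last of each, and that stretch holds a GGGCGG match read on opposite strands. Each also holds a CCAAT match further up. Col4a5 holds CCAAT as well as a match to GGGCGG, Col4a6 holds only GGGCGG, Col4a4 none of the motifs, and no window printed here holds TATAAA. Of the 44 members, 35 matched at least 1 window, giving 38 windows. GGGCGG was present in 60.5% of these and in 35.7% of all 32851 promoter windows of the same length. CCAAT was present in 34.2% against 37.4%, and TATAAA in 13.2% against 13.6%. Both strands were searched; CCAAT read on the other strand ends in GG and so can run into GGGCGG. A match only describes the sequence.

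Library totals ranged from 17182599 to 44201637 counts. One library, MSC day 13 replicate 3, had the lowest total and counts for 43174 genes, against 26542 to 29154 in the other 14. The summed level of 7 thymocyte markers was 3305 CPM, that is counts scaled to a common library size, in it, against 41.8 to 63.9 CPM in the HDM group and 36.3 to 53.3 CPM in the MSC day 6 group. Its summed levels of 9 fibroblast markers (1389 CPM) and 7 endothelial markers (1233 CPM) were the lowest of the MSC day 13 group, whose medians were 2218 and 2459 CPM. It was below every other MSC day 13 library for 29 of the 35 collagens with a mean of at least 1 CPM, and above every other for all 9 rarer ones. The share of all genes so placed was not computed, so these counts describe the library and do not set collagens apart. In the HDM group, replicates 1 and 2 were below replicates 3 to 5 for 18 of the 39 collagens tested, or 46.2%, while 27.7% of all 19562 genes tested behaved so. Of all 44 members, replicates 1 and 2 were below for 19 and above for 4. No label sets these replicates apart, so the split rests on the counts alone. The main results are therefore given with and without MSC day 13 replicate 3, and the fits without HDM replicates 1 and 2 are given where they change a call.

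**Figure D1:**
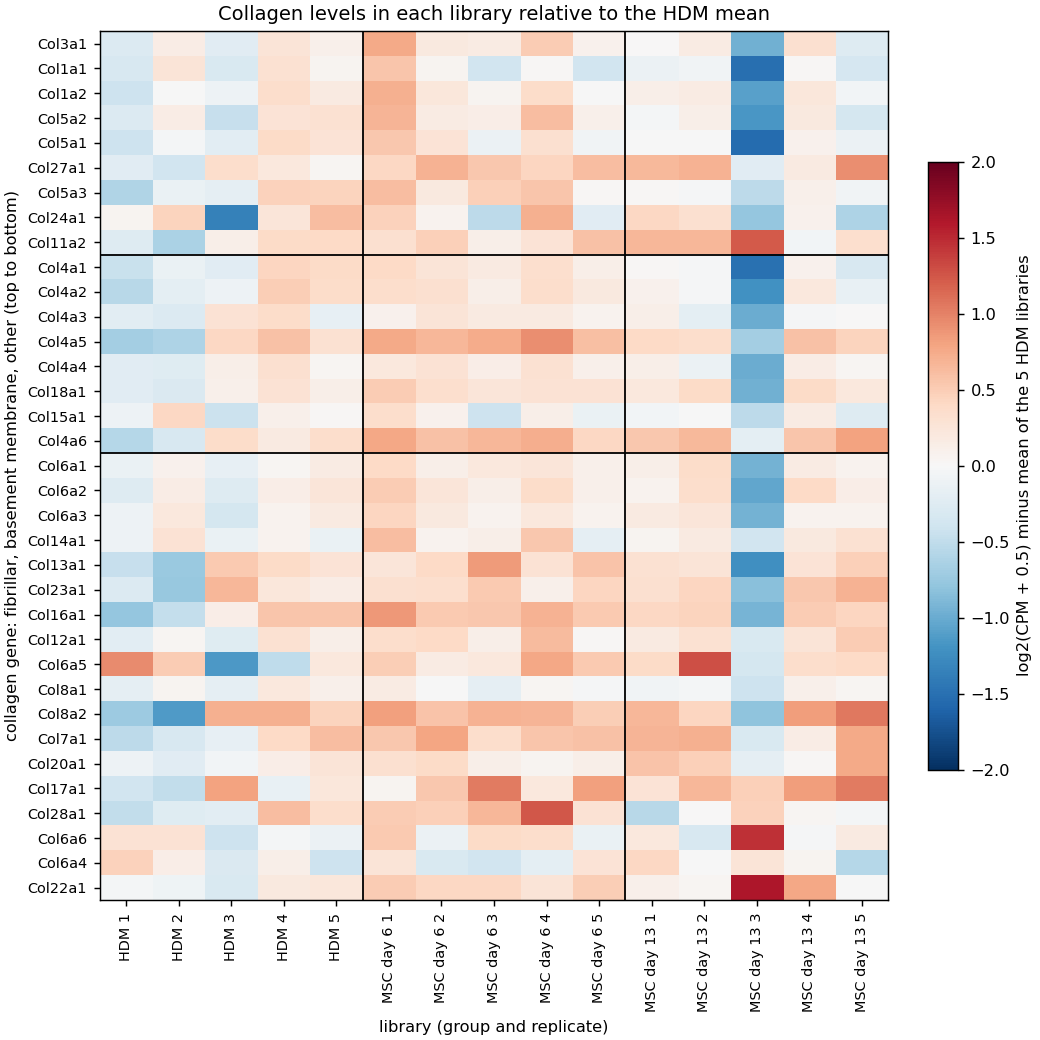
Each cell is 1 of the 35 collagens with a mean of at least 1 CPM in 1 of the 15 libraries, coloured by log2(CPM + 0.5) minus the mean of the 5 HDM libraries; black lines divide groups and classes. The MSC day 13 replicate 3 column is blue for most fibrillar and basement membrane genes and red for Col22a1, Col6a6 and Col11a2.

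Collagen transcripts were abundant, and a handful of chains carried most of them. Collagens took 0.826 ± 0.139% (SD, n = 5) of all counts in HDM lungs, 1.046 ± 0.138% (n = 5) in MSC day 6 lungs and 0.819 ± 0.259% (n = 5) in MSC day 13 lungs, or 0.931 ± 0.0753% (n = 4) without replicate 3. In single libraries the share was 0.665%, 0.798%, 0.732%, 0.995% and 0.940% in HDM replicates 1 to 5. It was 1.249%, 1.026%, 0.928%, 1.109% and 0.919% in MSC day 6 replicates 1 to 5, and 0.923%, 0.974%, 0.371%, 0.999% and 0.829% in MSC day 13 replicates 1 to 5. The HDM and MSC day 6 ranges overlapped, and MSC day 13 replicate 3 was the lowest library of all. These are bulk samples of lung lobes, in which fewer cells of a type and less RNA per cell cannot be told apart.

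Levels were also divided by the length of merged exons. This length takes in every annotated transcript of a gene, so it can exceed that of the main mRNA, and the order of genes depends on it. On this scale Col3a1 led at 224.8 CPM per kilobase over all libraries, and it was above the next gene in 15 of 15 libraries. Col3a1 encodes the single chain of type III collagen, the fibril former of distensible tissue. Col4a1 at 150.7, Col4a2 at 139.6 and Col6a1 at 130.8 CPM per kilobase came next; Col4a1 exceeded Col4a2 in 13 of 15 libraries and Col4a2 exceeded Col6a1 in 10 of 15, so the order within these 3 was not the same in every library. Col1a1 (86.6), Col1a2 (65.8), Col6a2 (54.2) and Col6a3 (40.4 CPM per kilobase) followed, and each of the first 3 exceeded the next in 15 of 15 libraries. Before the division Col1a2 was above Col1a1 in every library, at means of 818 and 568 CPM. Their merged exons are 12426 and 6563 bases long. These 8 genes made up 80.7% of the collagen signal per length.

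Below them, Col4a3 (34.9) and Col5a2 (32.2 CPM per kilobase) were not separated, Col4a3 being higher in 9 of 15 libraries. Col5a1 (17.4), Col4a4 (16.9) and Col14a1 (16.7) were likewise not ordered, each exceeding the next in 8 of 15. At the bottom stood the cartilage collagens: Col2a1, the type II chain, had 0 to 4 counts in every library except MSC day 13 replicate 3, where it had 26. Col10a1, a marker of hypertrophic cartilage, had no count in any HDM library and at most 3 in any other. These together with Col9a1, Col9a2 and Col11a1 were too low to be tested, which left 39 members in the tests.

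**Figure D2:**
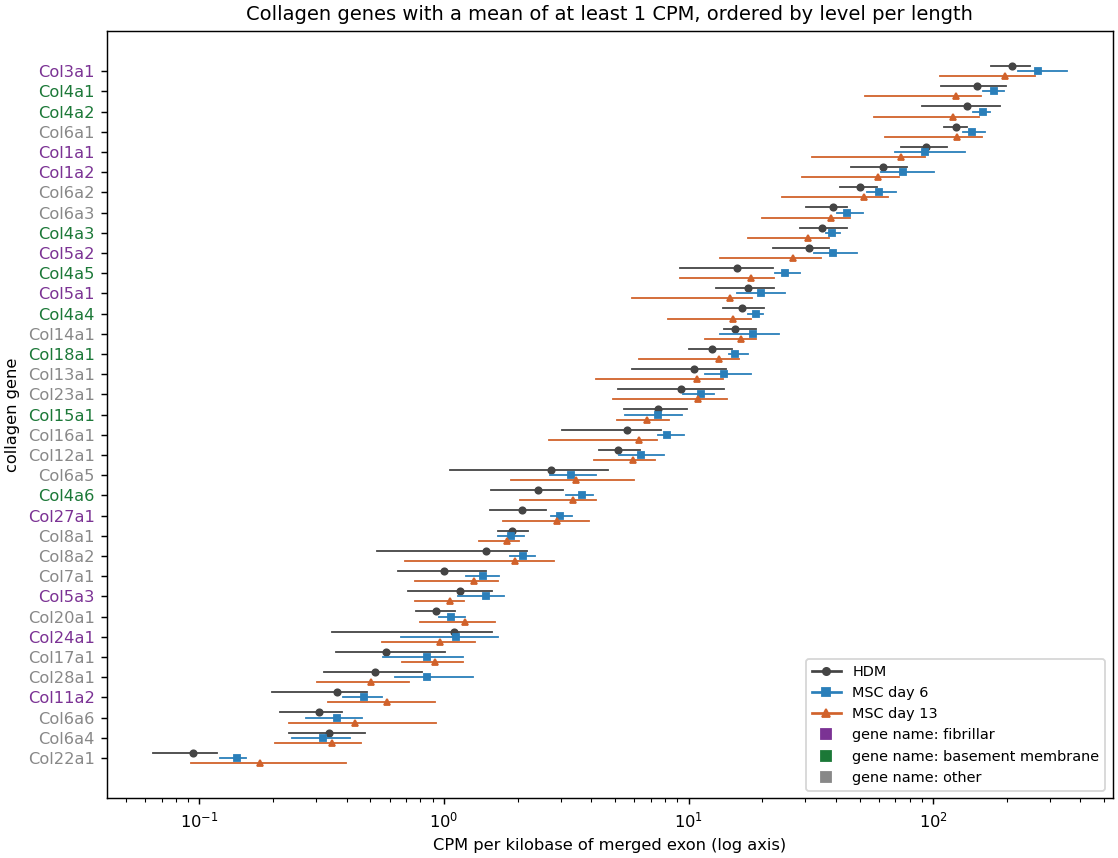
The level of each collagen with a mean of at least 1 CPM, in CPM per kilobase of merged exon on a log axis, ordered by the mean of all 15 libraries. Symbols are group means of 5 libraries, lines run from the lowest to the highest library, and name colours give the class; the span runs from Col3a1 at 224.8 to Col22a1 at 0.138 CPM per kilobase.

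Fibrillar collagens did not pass edgeR's test in any comparison with all 15 libraries. Col27a1 passed it at day 13 without MSC day 13 replicate 3. Limma voom, run with quality weights that lower the part of more variable libraries, called it with all 15. Col3a1 (chr1:45311538-45349706, plus strand) stood at 1685, 2258, 1743, 2450.0 and 2179 CPM in HDM replicates 1 to 5. It stood at 3455, 2341, 2275, 2899.8 and 2175 CPM in MSC day 6 replicates 1 to 5, and at 2052, 2287, 1044, 2554 and 1704 CPM in MSC day 13 replicates 1 to 5. The groups overlapped, with MSC day 6 replicate 1 the highest and MSC day 13 replicate 3 the lowest library. Against HDM the log2 fold change of Col3a1 was 0.35 (SE 0.21, adjusted p = 0.476) at day 6 and -0.10 (SE 0.21, adjusted p = 0.815) at day 13, the latter 0.08 (SE 0.15, adjusted p = 0.800) without replicate 3.

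Col1a1 (chr11:94936224-94953042, plus strand), the chain present in double dose in type I collagen, was at 484, 719.9, 485, 744 and 627 CPM in HDM replicates 1 to 5 and at 888, 622, 459, 609 and 463 CPM in MSC day 6 replicates 1 to 5. It was at 555, 574, 211, 609.5 and 478 CPM in MSC day 13 replicates 1 to 5. All 3 groups overlapped, and leaving out replicate 3 narrowed the day 13 range to values inside the HDM range or just below it. The log2 fold change was -0.33 (SE 0.25, adjusted p = 0.446) at day 13, and -0.13 (SE 0.18, adjusted p = 0.703) without replicate 3; at day 6 it was -0.01 (SE 0.25, adjusted p = 0.992). Its partner Col1a2 gave -0.08 (SE 0.22) at day 13 and 0.27 (SE 0.22) at day 6, with adjusted p of 0.865 and 0.619; without replicate 3 the day 13 value was 0.11 (SE 0.15, adjusted p = 0.682).

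The type V chains, which start fibrils and limit their width, were also within the spread between libraries. Col5a1 averaged 148.8 ± 33.9 CPM in HDM, 168.6 ± 32.2 CPM in MSC day 6 and 125.3 ± 42.9 CPM in MSC day 13 lungs (SD, n = 5 each). Col5a2 averaged 297.0 ± 67.2, 373 ± 76.0 and 257 ± 82.3 CPM. Col5a3, a minor chain of the same type, had the smallest p of the fibrillar class between the MSC groups, with a log2 fold change of -0.50 (SE 0.20, adjusted p = 0.623) for day 13 against day 6. Col5a2 followed at -0.54 (SE 0.22) and Col3a1 at -0.45 (SE 0.21), both at the same adjusted p; without replicate 3 the 3 values were -0.39, -0.35 and -0.28.

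Col27a1 (chr4:63214004-63334991, plus strand), a fibrillar chain known from growth plate cartilage, was at 22.6, 20.1, 34.1, 30.9 and 27.4 CPM in HDM replicates 1 to 5, and at 35.5, 43.4, 38.8, 35.7 and 40.9 CPM in MSC day 6 replicates 1 to 5. It was at 42.1, 43.2, 22.7, 30.05 and 50.9 CPM in MSC day 13 replicates 1 to 5. Every MSC day 6 library was above every HDM library, while MSC day 13 overlapped HDM through replicates 3 and 4. Its log2 fold change at day 13 was 0.49 (SE 0.19, adjusted p = 0.127), and 0.64 (SE 0.16, adjusted p = 0.0260) without replicate 3. That call ended when HDM replicates 1 and 2, its lowest HDM libraries, were left out as well. With quality-weighted limma voom and all 15 libraries, the log2 fold change was 0.53 (SE 0.13, adjusted p = 0.0168). At day 6 it was 0.52 (SE 0.19, adjusted p = 0.225), and 0.53 (SE 0.15, adjusted p = 0.0662) without replicate 3. Col11a2, a chain of type XI collagen, gave 0.66 (SE 0.27, adjusted p = 0.145) at day 13 with its highest value, 6.32 CPM, in replicate 3, and 0.47 (SE 0.25, adjusted p = 0.247) without it.

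**Figure D3:**
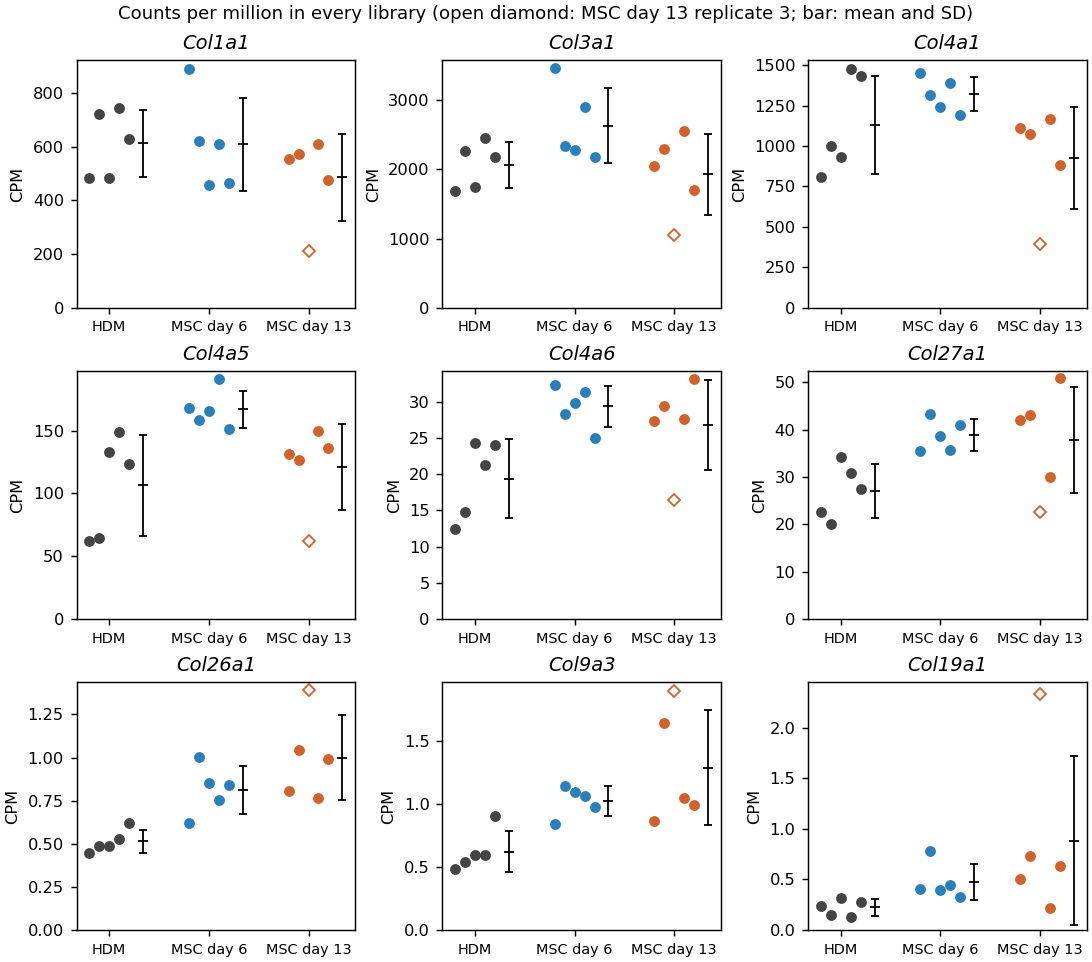
CPM of 9 collagens in every library, with the group mean and SD (n = 5) beside the points and an axis from 0; the open diamond is MSC day 13 replicate 3. The diamond is the lowest MSC day 13 point for Col1a1, Col3a1, Col4a1, Col4a5, Col4a6 and Col27a1 and the highest for Col26a1, Col9a3 and Col19a1.

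Among basement membrane collagens, the chains of the main network, Col4a1 and Col4a2, did not differ past the test, while the sparse Col4a6 passed edgeR's test at day 13 once replicate 3 was left out and limma voom's test with all 15 libraries. Col4a1 was at 807, 999, 934, 1476 and 1434 CPM in HDM replicates 1 to 5. It was at 1452, 1314, 1242, 1389 and 1194 CPM in MSC day 6 replicates 1 to 5 and at 1111, 1075, 392, 1168 and 880.2 CPM in MSC day 13 replicates 1 to 5. The HDM libraries spanned both MSC groups apart from replicate 3, and every MSC day 13 library was below every MSC day 6 library. For day 13 against day 6 the log2 fold change of Col4a1 was -0.51 (SE 0.24, adjusted p = 0.623), and -0.30 (SE 0.16, adjusted p = 0.966) without replicate 3. Against HDM it was 0.22 (SE 0.24, adjusted p = 0.727) at day 6 and -0.29 (SE 0.24, adjusted p = 0.494) at day 13, the latter -0.08 (SE 0.16, adjusted p = 0.798) without replicate 3.

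Col4a2 followed its partner, at 913.0 ± 268 CPM in HDM, 1063 ± 74.7 CPM in MSC day 6 and 797 ± 248 CPM in MSC day 13 lungs (SD, n = 5 each). Col4a3 and Col4a4, chains of the network found in alveolar and glomerular basement membrane, gave log2 fold changes of -0.20 (SE 0.18) and -0.12 (SE 0.17) at day 13 and 0.13 (SE 0.18) and 0.19 (SE 0.17) at day 6. Their adjusted p lay between 0.535 and 0.793, and without replicate 3 the day 13 values were -0.03 (SE 0.12) and 0.05 (SE 0.10). Between the MSC groups Col4a3 gave -0.32 (SE 0.18) and Col4a4 -0.31 (SE 0.17), both at an adjusted p of 0.623, and without replicate 3 they gave -0.16 and -0.15 at 0.966. About 5.65% of Col4a3 exon bases overlap a transcript on the opposite strand, whose reads could be told apart only if the counting used strand.

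Col4a5, the chain altered in X-linked Alport syndrome, was at 62.0, 64.4, 133, 149 and 123 CPM in HDM replicates 1 to 5. It was at 168, 158, 166, 191 and 151 CPM in MSC day 6 replicates 1 to 5 and at 131, 127, 62.0, 149 and 136 CPM in MSC day 13 replicates 1 to 5. MSC day 6 libraries were all above HDM and all above MSC day 13; HDM replicates 1 and 2 and MSC day 13 replicate 3 formed a low group of 3. At day 6 its log2 fold change against HDM was 0.65 (SE 0.25, adjusted p = 0.262), and 0.66 (SE 0.21, adjusted p = 0.104) without replicate 3.

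Col4a6 (chrX:141165403-141474076, minus strand), which shares a network with Col4a5, was at 12.4, 14.8, 24.3, 21.3 and 24.0003 CPM in HDM replicates 1 to 5 and at 32.3, 28.3, 29.8, 31.4 and 25.03 CPM in MSC day 6 replicates 1 to 5. It was at 27.3, 29.5, 16.4, 27.7 and 33.2 CPM in MSC day 13 replicates 1 to 5. All MSC libraries were above all HDM libraries except MSC day 13 replicate 3. The log2 fold change at day 13 was 0.47 (SE 0.19, adjusted p = 0.150), and 0.62 (SE 0.16, adjusted p = 0.0356) without replicate 3. With quality-weighted limma voom and all 15 libraries it was 0.46 (SE 0.13, adjusted p = 0.0325). At day 6 it was 0.60 (SE 0.19, adjusted p = 0.181), and 0.61 (SE 0.16, adjusted p = 0.0512) without replicate 3. Without HDM replicates 1 and 2 as well as replicate 3, the day 13 value of Col4a6 was 0.34 (SE 0.09, adjusted p = 0.0353), and without HDM replicates 1 and 2 alone it was 0.22 (SE 0.17, adjusted p = 0.420). Of type XV and XVIII collagens, which carry endostatin-like ends, Col18a1 gave 0.32 (SE 0.19, adjusted p = 0.482) at day 6 and Col15a1 gave 0.00 (SE 0.17, adjusted p = 0.995).

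Among the other collagens, 3 rare members were called higher at day 13 by edgeR with all 15 libraries. None of these calls held without HDM replicate 1, 2 or 4 or MSC day 13 replicate 2 or 5, left out in turn. Col26a1 (chr5:136741759-136883209, minus strand), first described in testis and ovary, was at 0.446, 0.487, 0.489, 0.529 and 0.622 CPM in HDM replicates 1 to 5, from 13 to 20 counts each. It was at 0.622, 1.001, 0.851, 0.756 and 0.839 CPM in MSC day 6 replicates 1 to 5 and at 0.804, 1.045, 1.39, 0.768 and 0.991 CPM in MSC day 13 replicates 1 to 5. Every MSC library was above every HDM library, though the lowest MSC day 6 library and the highest HDM library were nearly equal. The log2 fold change was 0.93 (SE 0.21, adjusted p = 0.0238) at day 13, 0.82 (SE 0.20, adjusted p = 0.0279) without replicate 3, and 0.66 (SE 0.21, adjusted p = 0.170) at day 6.

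Col9a3 (chr2:180597790-180622189, plus strand), a chain of type IX collagen that coats cartilage fibrils, was at 0.480, 0.536, 0.594, 0.595 and 0.902 CPM in HDM replicates 1 to 5. It was at 0.840, 1.14, 1.094, 1.063 and 0.979 CPM in MSC day 6 replicates 1 to 5 and at 0.864, 1.647, 1.896, 1.045 and 0.991 CPM in MSC day 13 replicates 1 to 5. HDM replicate 5 overlapped the lowest library of each MSC group. The log2 fold change was 1.03 (SE 0.25, adjusted p = 0.0301) at day 13, 0.89 (SE 0.24, adjusted p = 0.0364) without replicate 3, and 0.72 (SE 0.24, adjusted p = 0.204) at day 6. Of the Col9a3 exons, 6.07% overlap Tcfl5 on the opposite strand. Its partner chains Col9a1 and Col9a2 had 0 to 7 counts in every library other than replicate 3, and the summed level of 9 cartilage markers was 4.29 to 5.85 CPM in HDM, 3.49 to 5.35 CPM in MSC day 6 and 3.40 to 13.1 CPM in MSC day 13 lungs. Replicate 3 held that highest cartilage value, and its part in the Col9a3 result was not tested beyond leaving it out.

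Col19a1 (chr1:24261890-24587472, minus strand), a fibril-associated collagen of muscle and basement membrane zones, was at 0.240, 0.146, 0.314, 0.132 and 0.280 CPM in HDM replicates 1 to 5. It was at 0.404, 0.778, 0.395, 0.448 and 0.326 CPM in MSC day 6 replicates 1 to 5 and at 0.506, 0.729, 2.338, 0.215 and 0.637 CPM in MSC day 13 replicates 1 to 5. Replicate 3 was the highest library and MSC day 13 replicate 4 lay inside the HDM range. The HDM libraries held 4 to 9 counts each, so Col19a1 passed the filter on low counts only through the MSC groups. A fit of the HDM and MSC day 13 libraries alone did not keep it. The log2 fold change at day 13 was 1.89 (SE 0.52, adjusted p = 0.0499), and 1.25 (SE 0.39, adjusted p = 0.0637) without replicate 3, so the call ended there; at day 6 it was 1.08 (SE 0.53, adjusted p = 0.377).

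The abundant other collagens were the type VI chains, which form beaded filaments between basement membrane and fibrils. Col6a1 was at 495, 575, 485, 555 and 604 CPM in HDM replicates 1 to 5. It was at 715, 588, 625, 639 and 579 CPM in MSC day 6 replicates 1 to 5 and at 587, 696, 279, 606 and 568 CPM in MSC day 13 replicates 1 to 5. Apart from MSC day 13 replicate 3 the libraries lay within 485 to 715 CPM, and the groups overlapped. At day 6 the log2 fold changes of Col6a1, Col6a2 and Col6a3 were 0.21, 0.26 and 0.19, with SE between 0.17 and 0.20 and adjusted p between 0.616 and 0.680. At day 13 they were 0.01, 0.05 and -0.03, and 0.20, 0.25 and 0.15 without replicate 3.

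Col6a5, another type VI chain, spread widely within the HDM group, from 9.95 CPM in replicate 3 to 44.2 CPM in replicate 1. Between the MSC groups, Col28a1, a beaded filament collagen linked to peripheral nerve, had the smallest p of all collagens. It was at 3.67, 3.59, 4.13, 6.44 and 3.10 CPM in MSC day 6 replicates 1 to 5 and at 1.49, 2.44, 3.54, 2.52 and 2.37 CPM in MSC day 13 replicates 1 to 5. Without replicate 3 the groups did not overlap. Its log2 fold change was -0.77 (SE 0.28, adjusted p = 0.623), and -0.91 (SE 0.28, adjusted p = 0.966) without replicate 3, and at day 6 against HDM it was 0.71 (SE 0.28, adjusted p = 0.268).

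All 7 tested fibril-associated collagens with interrupted helices had log2 fold changes above 0 against HDM, at day 6 with a median of 0.55 and at day 13 with a median of 0.40, or 0.39 without replicate 3. These include Col12a1 and Col14a1, which decorate type I fibrils, at 0.31 and 0.25 for day 6 and 0.20 and 0.08 for day 13, and Col16a1, at 0.55 for day 6. The other members tested, Col7a1 of anchoring fibrils, Col8a1, Col8a2, Col20a1, Col24a1 and Col6a4, passed the test in no comparison, with or without replicate 3. At day 6, 8 of 9 fibrillar and 7 of 8 basement membrane collagens tested were above 0 too, so that sign was not particular to the fibril-associated members. Of these 7, Col19a1 was tested only because its MSC libraries passed the filter on low counts, so its sign and call give no support. The counts and shares that follow include it. Among the 7, Col9a3 and Col19a1 passed edgeR's test at day 13, where 1.9% of all genes were called higher. Only Col9a3 did so without replicate 3, where 3.23% were. None passed at day 6, where 0.0971% of all genes were called in either direction. At an unadjusted p under 0.05 in edgeR's test there was 1 of the 7 at day 6, or 14.3% against 13.9% of all genes. Without replicate 3 there were 5, or 71.4% against 20.2%, and none passed. At day 13 there were 4, or 57.1% against 23.7% of all genes, and again 4 without replicate 3, against 25.1%. The 4 transmembrane collagens, Col13a1, Col17a1, Col23a1 and Col25a1, were above 0 in both comparisons without passing edgeR's test with all 15 libraries, at medians of 0.39 for day 6 and 0.46 for day 13, or 0.47 for day 13 without replicate 3. Col17a1, a collagen of the anchoring complexes of epithelial cells, gave 0.68 (SE 0.28, adjusted p = 0.153) at day 13. HDM replicate 3 held its highest HDM value, 6.04 CPM, so leaving that library out was bound to raise the fold change. Without HDM replicate 3 edgeR gave 0.97 (SE 0.25, adjusted p = 0.0373). Of 25 alternatives, only this 1 called Col17a1.

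For MSC day 13 against HDM there were 3 higher and 0 lower collagens of 39 tested in edgeR's quasi-likelihood test with all 15 libraries, while 4.79% of all genes tested were called, 1.9% higher and 2.89% lower. All 3 averaged under 1 CPM, and Col19a1 passed the filter on low counts only through the MSC groups. With all 15 libraries quality-weighted limma voom called 5, adding Col27a1 and Col4a6, and DESeq2 called the same 3 as edgeR. Without replicate 3 there were 4 higher collagens, Col26a1, Col9a3, Col27a1 and Col4a6, against 3.23% of all genes called higher. With all 15 libraries, 1 of 39 collagens, Col26a1, had every MSC day 13 library above every HDM library, or 2.56%, and 2.52% of all genes did. The median log2 fold change was -0.14 for fibrillar, -0.13 for basement membrane and 0.29 for other collagens, and -0.02, 0.02 and 0.39 without replicate 3; for all genes it was 0.03 in both fits. With all libraries but HDM replicate 1, 2 or 4 or MSC day 13 replicate 2 or 5, no collagen was called. Without HDM replicates 1 and 2 together, none was called and the median over all 39 collagens went from 0.08 to -0.02. With MSC day 13 replicate 3 left out as well, only Col4a6 was called, and Col26a1, Col9a3 and Col27a1 were not. Beside these values, 6 of the 7 myofibroblast and smooth muscle markers were called higher at day 13 without replicate 3 (median log2 fold change 0.59), and none with it (median 0.41), their summed level reaching 1540 CPM in the MSC day 13 group and standing at 681 CPM in replicate 3. None of 9 fibroblast markers was called in either fit, and the part of these cells in the collagen values was not tested. Over the alternatives, the highest adjusted p was 0.0946 for Col26a1 and 0.114 for Col9a3.

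For MSC day 6 against HDM, edgeR, DESeq2 and limma voom each called 0 collagens, and 0.0971% of all genes were called by edgeR, or 2.2% without MSC day 13 replicate 3. At an unadjusted p under 0.05 there were 7 collagens, or 17.9% against 13.9% of all genes, and without that replicate 15, or 38.5% against 20.2%. The values were mostly on one side, with 35 of 39 above 0 and a median log2 fold change of 0.31, against 0.01 for all genes tested. The 39 members were measured in the same libraries and are not independent, so this count is a description and not a test. The medians were 0.33 for fibrillar, 0.22 for basement membrane and 0.33 for other collagens. In 6 of 39 collagens (15.4%), Col4a5, Col4a6, Col27a1, Col22a1, Col26a1 and Col19a1, every MSC day 6 library was above every HDM library, and 1.85% of all genes were so placed. Of these, Col19a1 was tested only because its MSC libraries passed the filter on low counts. Without HDM replicates 1 and 2, 34 of 39 were above 0 at a median of 0.21. Beside these values, all 7 myofibroblast and smooth muscle markers were above 0 at day 6 (median log2 fold change 0.31, none called), their summed level ranging from 878 to 1117 CPM in HDM and from 1121 to 1357 CPM in MSC day 6 lungs. Of 9 fibroblast markers, 7 were above 0 at a median of 0.09. Their part in the collagen values was not tested.

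**Figure D4:**
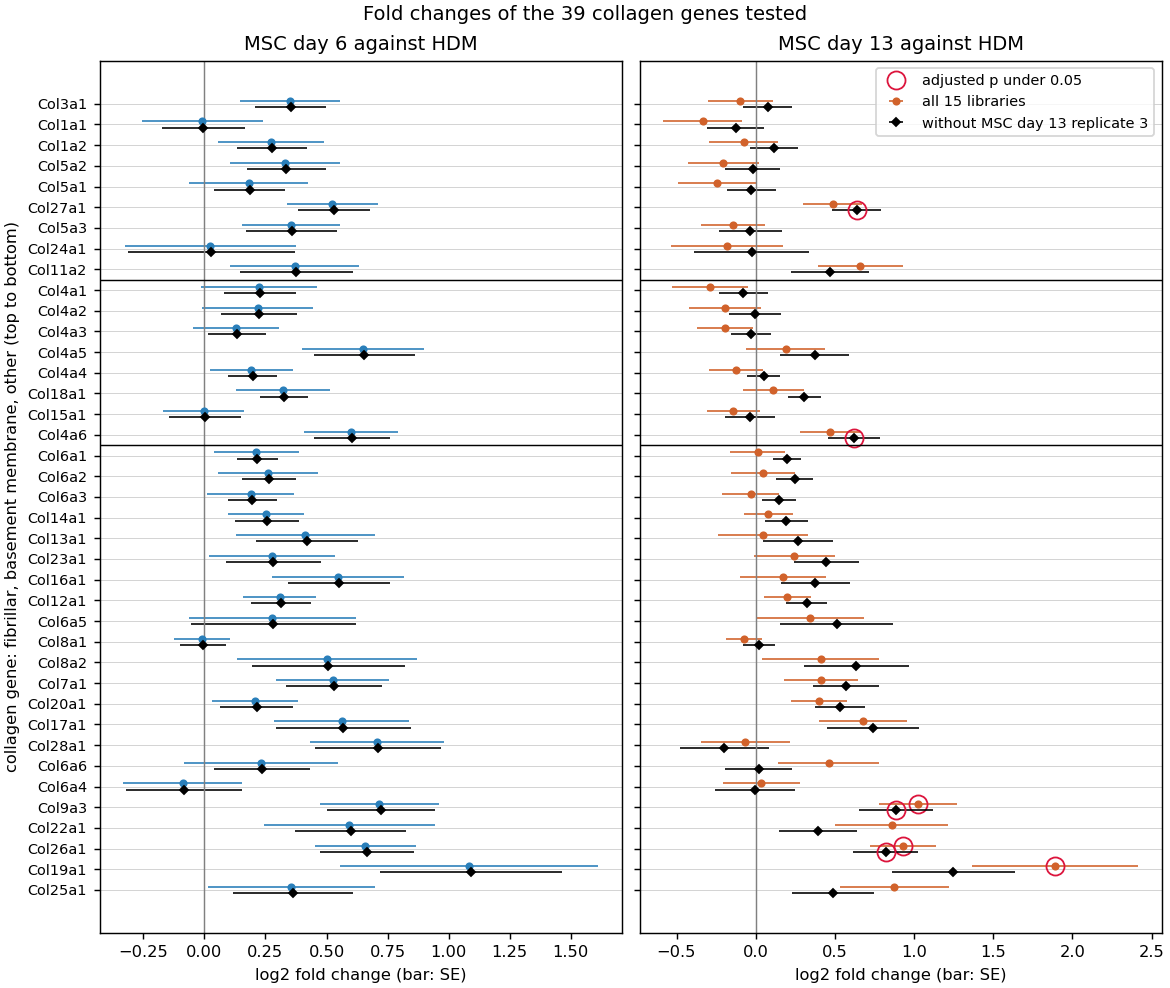
Log2 fold changes of the 39 tested collagens against HDM with their SE, for MSC day 6 on the left and MSC day 13 on the right; coloured circles are from all 15 libraries, black diamonds from the fit without MSC day 13 replicate 3, and red rings mark an adjusted p under 0.05. At day 6, 35 of 39 circles lie right of 0 with no ring; at day 13 the rings are on Col26a1, Col9a3 and Col19a1, and on Col27a1 and Col4a6 for diamonds.

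For MSC day 13 against MSC day 6, edgeR, DESeq2 and limma voom each called 0 collagens with all 15 libraries, and edgeR called 0% of all genes, also without replicate 3. At an unadjusted p under 0.05 there were 5 collagens, or 12.8% against 7.74% of all genes, and without replicate 3 there was 1, Col28a1, or 2.56% against 4.78%. Values were below 0 for 28 of 39 collagens at a median of -0.17, and for 23 of 39 at -0.04 without replicate 3. Col4a1, Col4a5 and Col16a1, or 7.69% of the collagens tested, had every MSC day 13 library below every MSC day 6 library, against 1.04% of all genes. In the test of any difference among the 3 groups, edgeR called 0 of 39 collagens at 1.61% of all genes, with 7 at an unadjusted p under 0.05, and DESeq2 called 3 and limma voom 2. Without replicate 3 it called Col27a1 (adjusted p = 0.0449) and Col4a6 (adjusted p = 0.0464), at 4.22% of all genes. Both MSC groups share the same HDM libraries as control, so their values against HDM are not independent of each other.

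For the chains of types I, IV, V and VI alike, ratios between partners spanned a narrower range of folds than the levels did. Col5a1 to Col5a2 ran from 0.434 to 0.671 over all 15 libraries, while the Col5a2 level ran from 129 to 467 CPM. Per length, Col4a1 to Col4a2, whose windows overlap, was 1.11 ± 0.0743 in HDM, 1.10 ± 0.0444 in MSC day 6 and 1.02 ± 0.0703 in MSC day 13 lungs (SD, n = 5 each). Over all 15 libraries the ratio ran from 0.918 to 1.20 while the Col4a1 level itself ran from 392 to 1476 CPM, and MSC day 13 replicate 3 held the lowest value of both. Col4a3 to Col4a4 was 2.12 ± 0.201, 2.04 ± 0.105 and 2.04 ± 0.0951, and in replicate 3 it was 2.12, within the range of the others. Col4a5 to Col4a6, the most widely spaced type IV genes, was 6.39 ± 1.18, 6.76 ± 0.434 and 5.32 ± 0.754. Col6a1 to Col6a2 was 2.48 ± 0.188, 2.39 ± 0.153 and 2.44 ± 0.208. Col6a1 to Col6a3, genes on chromosomes 10 and 1, was 3.21 ± 0.262, 3.24 ± 0.173 and 3.27 ± 0.177. Over all 15 libraries it ran from 2.96 to 3.66. Any part of the spacing of start sites in the ratios was not tested. These are descriptions without a test. The size of each ratio, here and below, depends on the merged exon lengths, while its spread in folds between libraries does not.

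Col8a1 to Col8a2, chains of a network collagen around vessels, spread more: 1.77 ± 1.22, 0.903 ± 0.0859 and 1.09 ± 0.535, with HDM replicates 1 and 2 low in Col8a2. For type I collagen, Col1a1 to Col1a2 was 1.60, 1.79, 1.29, 1.45 and 1.37 in HDM replicates 1 to 5. It was 1.34, 1.31, 1.10, 1.17 and 1.15 in MSC day 6 replicates 1 to 5 and 1.27, 1.27, 1.10, 1.28 and 1.22 in MSC day 13 replicates 1 to 5. Every MSC day 13 library was below every HDM library, by a margin between 1.283 and 1.288 at the closest point, and MSC day 6 overlapped HDM. HDM replicates 1 and 2 were the highest of the 15. Fibrillar counts divided by basement membrane counts were 1.42 ± 0.220, 1.43 ± 0.221 and 1.46 ± 0.109 in HDM, MSC day 6 and MSC day 13 lungs, and MSC day 13 replicate 3, at 1.55, was low in both classes alike.

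**Figure D5:**
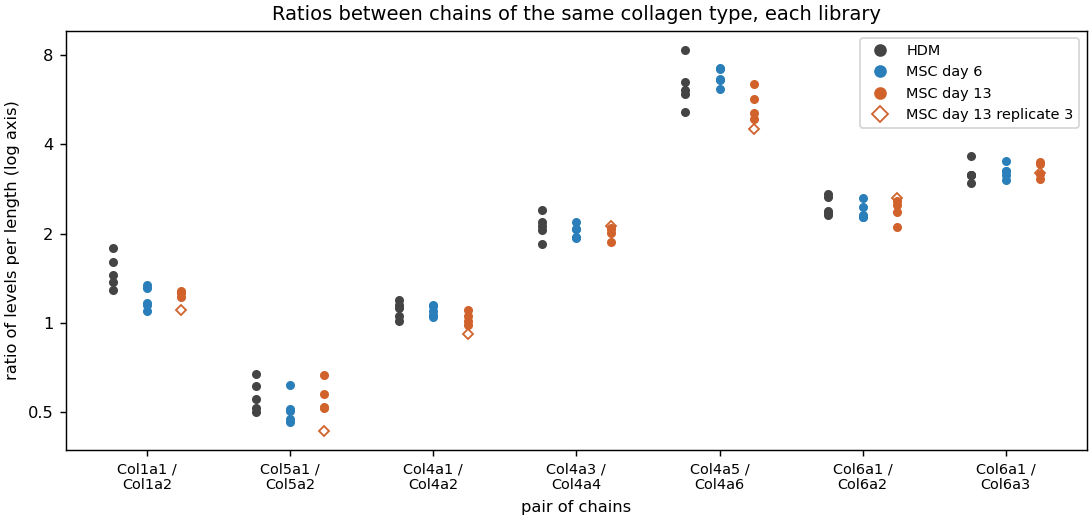
Ratios of levels per length between chains of the same collagen type, 1 point per library on a log axis, with MSC day 13 replicate 3 as an open diamond. Col1a1 to Col1a2 reaches 1.79 in HDM libraries and stays at or below 1.28 in MSC day 13 libraries; the other ratios overlap between the HDM and MSC groups.

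The machinery that modifies, exports and cross-links collagen was followed with 58 genes, of which 55 could be tested. At day 13, 4 fell against HDM and none rose; 7.27% of the list was called lower, against 2.89% of all genes. Lox, the lysyl oxidase that cross-links fibrils, was at 124, 139.9, 87.3, 140.2 and 121 CPM in HDM replicates 1 to 5. It was at 123, 106, 96.9, 133 and 92.1 CPM in MSC day 6 replicates 1 to 5 and at 78.7, 88.2, 56.5, 109.8 and 58.8 CPM in MSC day 13 replicates 1 to 5. HDM replicate 3 lay inside the day 13 range and the other 4 HDM libraries above it. The log2 fold change of Lox was -0.64 (SE 0.18, adjusted p = 0.0492), and the value without MSC day 13 replicate 3 was -0.53 (SE 0.17, adjusted p = 0.0668).

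Loxl2, a lysyl oxidase that also acts on type IV collagen, was at 34.6, 52.0, 26.2, 39.3 and 33.5 CPM in HDM replicates 1 to 5 and at 21.7, 25.8, 19.0, 28.5 and 22.6 CPM in MSC day 13 replicates 1 to 5. Creb3l1, a membrane-bound transcription factor that activates collagen genes in bone, was at 30.8, 30.0, 22.6, 35.5 and 34.9 CPM in HDM and at 16.5, 20.7, 7.65, 23.5 and 16.6 CPM in MSC day 13 lungs. Fmod, a small proteoglycan on collagen fibrils, was at 17.1, 29.7, 13.0, 21.3 and 15.9 CPM and at 13.8, 12.7, 6.26, 7.47 and 11.6 CPM. Each of the 3 overlapped between the groups through HDM replicate 3 alone. Loxl2 fell by 0.66 (SE 0.16, adjusted p = 0.0330), Creb3l1 by 0.85 (SE 0.23, adjusted p = 0.0449) and Fmod by 0.90 (SE 0.23, adjusted p = 0.0356), and without replicate 3 they fell by 0.57, 0.65 and 0.75 at adjusted p of 0.0438, 0.0274 and 0.0438.

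Without replicate 3, Tnxb, an extracellular glycoprotein that spaces fibrils, rose at day 13 by 0.88 (SE 0.16, adjusted p = 0.0103); with all libraries it gave 0.66 (SE 0.25, adjusted p = 0.131), its lowest MSC day 13 value being 94.0 CPM in replicate 3. At day 6 edgeR called none of the 55 genes, 5 had an unadjusted p under 0.05, or 9.09% against 13.9% of all genes, and DESeq2 and limma voom called 1 each. The smallest p was that of Tmem131, a protein that helps collagen secretion, with -0.33 (SE 0.09, adjusted p = 0.140), and -0.32 (SE 0.08, adjusted p = 0.0495) without MSC day 13 replicate 3. Fmod gave -0.57 and the prolyl hydroxylase P3h3 0.39 at day 6, at adjusted p of 0.276 and 0.318. Between the MSC groups edgeR, DESeq2 and limma voom called none. At an unadjusted p under 0.05 there were 5, or 9.09% against 7.74% of all genes, among them Loxl2 at -0.45, Lox at -0.49 and Adamts2, the procollagen N-proteinase, at -0.54, each at an adjusted p of 0.623. The median log2 fold change of the 55 genes was 0.09 at day 6. At day 13 it was -0.09, with 17 above and 38 below 0, and without replicate 3 its sign turned, to 0.04 with 29 above and 26 below 0. No biosynthesis gene was called at day 13 without HDM replicate 1, 2 or 4 or MSC day 13 replicate 2 or 5, in turn. There were 2 without HDM replicate 5 or MSC day 6 replicate 2 or 4, and 1 without MSC day 6 replicate 3 or 5 or MSC day 13 replicate 1.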

How the data were processed

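The deposited table holds raw whole-number counts per Ensembl gene, 1 column per library. Per the submitters' processing notes, the authors used STAR 2.5.3a and GRCm38. What counted the reads, with which strand setting and annotation, is not stated in those sources. Libraries came from a stranded total RNA kit, per the labels' protocols. Biotypes, exon lengths and coordinates came from GENCODE M21, which matched 55240 of 55421 genes.

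The filterByExpr filter kept 19562 genes, scaled by TMM factors. All 15 libraries entered 1 fit of edgeR 4.0.16 (quasi-likelihood, robust) in R 4.3.3. Contrasts between groups and a test of any difference among them were two-sided, adjusted by Benjamini-Hochberg over all genes tested and called under 0.05. CPM use TMM-scaled totals. The fit was tested on simulated data with changes planted in genes averaging at least 1 CPM. For MSC day 13 against HDM it recovered 46% of 1.5-fold and 98% of 4-fold changes, and 3.7% of its calls were false. For MSC day 6 against HDM it recovered 42% and 100%, and 8.8% of its calls were false. Small changes can therefore be missed. The simulated counts held no library that stood apart like MSC day 13 replicate 3 and no split among HDM libraries. The collagens that edgeR called with all 15 libraries averaged under 1 CPM, so these rates do not describe those calls. Figures used matplotlib 3.10.9.

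Named collagens are those called in any fit, the major chains, the 3 smallest p per class and comparison, and those with a library far from its group; of the biosynthesis list, those called or the 3 smallest p. The remaining members are named so that each is accounted for. The members and lists were chosen with earlier results of these data known. Replicate numbers follow deposit order and pair nothing. Alternatives were other scalings, filters, DESeq2 1.42.0, limma 3.58.1 voom and left-out libraries.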

Additional observations from a re-analysis of the deposited data

Results flagged for a closer look

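Among 143 group values examined, 19 held a library whose gap to its nearest neighbour was large for the range of its group of 5. Chance gives about 1 in 20 for independent, normally spread values. These values share the same libraries and some are class shares of the same genes, so 19 of 143 cannot be set against that rate. MSC day 13 replicate 3 accounted for 16 of the 19, 9 low and 7 high. Low values in it were Col4a5 at 62.0 CPM, Col18a1 at 43.9 CPM, Col5a1 at 49.7 CPM, Col6a3 at 239 CPM, Col13a1 at 19.2 CPM and Col16a1 at 18.2 CPM. Its shares of all counts were also low: collagens at 0.371%, basement membrane collagens at 0.109% and other collagens at 0.0928%. High values in it were Col6a6 at 8.53 CPM, Col11a1 at 2.59 CPM, Col19a1 at 2.34 CPM, Col25a1 at 2.27 CPM, Col2a1 at 1.64 CPM, Col9a1 at 1.26 CPM and Col9a2 at 1.20 CPM. Outside it, Col9a3 was high in HDM replicate 5 at 0.902 CPM, and Col19a1 was high in MSC day 6 replicate 2 at 0.778 CPM. Col10a1 had 1 count in MSC day 6 replicate 5, 0.0233 CPM, against 0 in the other 4 libraries of its group.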

How the results depend on the processing

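The count of collagens called for MSC day 13 against HDM was 3. It was 0 without a filter on low counts, at a mean of at least 1 CPM, in a fit of only the libraries compared, and without HDM replicates 1 and 2 together. It was 5 with limma voom and 1, Col4a6, without HDM replicates 1 and 2 and MSC day 13 replicate 3 together. Leaving out each library in turn gave 0 to 4. The biosynthesis count of 4 became 2 with upper-quartile factors, 0 without a filter, in the fit of the libraries compared and without HDM replicates 1 and 2, and 8 with limma voom; DESeq2 gave 6, and leaving out each library gave 0 to 5. For MSC day 6 against HDM, 1 biosynthesis gene was called by DESeq2 and by limma voom against 0, with 0 to 1 when libraries were left out. For any difference among the 3 groups, 0 collagens became 3 with DESeq2, 2 with limma voom, 1 without HDM replicates 1 and 2 and MSC day 13 replicate 3 together, and 0 to 2 with left-out libraries. No collagen was called for day 6 against HDM or for day 13 against day 6 under any alternative run. The 1 CPM filter removes the rare collagens called; the cause of the other shifts was not tested. Col26a1 and Col9a3 kept their sign in all 24 alternatives and were called in 15 each; Col19a1 was called in 3 of 23. No paired analysis was possible because the labels give no replicate numbers that link mice across groups.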
